A study of Mus musculus with 30 samples.

Results

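The genes described here are 49 transcription factor genes outside the Hox clusters that pattern the early embryo. They are 10 T-box, 6 GATA, 7 NK homeobox and 7 paired box genes, 6 genes of the Gbx, Emx and Evx families, 2 Hand, 2 Pitx, 3 Hmx and 2 Cdx genes, together with Lbx1, Msx1, Msx2 and Six2. They were chosen by name, as classes of gene that Polycomb complexes are known to hold silent, and all 49 are among the 38720 gene symbols listed. Their histone marks were not analysed here, so whether each of them carries H3K27me3 in these cells is background and not a measurement.

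Polycomb repressive complex 2 (PRC2) places methyl groups on lysine 27 of histone H3, with Ezh2 or Ezh1 as its catalytic subunit. The mark helps to recruit Polycomb repressive complex 1 (PRC1), which compacts chromatin and ubiquitinates histone H2A. In mammals the complexes gather at CpG-rich promoters of developmental regulators, which stay silent in lineages that do not use them. In the retina a few of the genes are in normal use. Tbx2, Tbx3 and Tbx5 mark its dorsal side, Pax2 the optic stalk and the astrocytes of the optic nerve, and Hmx1 acts in eye and outer ear development.

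Retinas of newborn mice (postnatal day 0) were dissociated and retinal ganglion cells (RGCs), the neurons that send axons to the brain, were pulled out with magnetic beads against CD90, the product of Thy1. Cells left behind are the non-RGC fraction. The 9 libraries of poly(A) RNA covered here are 3 of WT RGCs from C57BL/6 mice and 3 each of RGCs and non-RGC cells of mutant mice. The series has 18 RNA samples and 12 chromatin immunoprecipitation or input samples of postnatal day 1, and the latter were not analysed here.

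The labels hold 2 mutant genotypes, Math5Cre; Ezh2f/f and Math5Cre; Ezh2f/fG9af/+, and the design text writes the second with G9a+/-. Math5 (Atoh7) is active in cells that leave the cell cycle to become ganglion cells and in some that become other neurons, so Cre is not expected in every retinal cell. G9a, encoded by Ehmt2, methylates lysine 9 of histone H3. The deposited tables name the mutant only as "mut", and its genotype was not inferred from expression. Nothing says whether a group stands for 3 animals, and p-values therefore measure only how far these libraries spread, which may be technical.

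Each library held between 10551825 and 12259494 assigned reads, and between 19864 and 21660 genes had a read. Libraries carry no sample number, and the order of their size factors, falling, gives them the numbers 1 to 3 in each group. Ezh2 had 1154, 1169 and 1576 normalised counts in WT RGC libraries 1 to 3 and 1962, 1863 and 1811 in those labelled mutant RGC, so it was higher there (log2 0.58, SE 0.13, limma adjusted p = 0.0292). Reads were counted over the whole gene and the sources used here do not name the floxed exons, so this checks neither the deletion nor the labels. Ehmt2 was lower in mutant RGCs (log2 -0.43, SE 0.11, limma adjusted p = 0.0332), and Atoh7 was not called (log2 1.25, SE 0.53, limma adjusted p = 0.113).

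Some libraries stood apart from their group. The summed level of 20 ganglion cell markers was 51429 and 52167 in WT libraries 1 and 2 and 44211 in WT library 3, against 20916, 34041 and 33749 in mutant RGCs and 5730.5 to 12265 in the non-RGC fraction. For 24 proliferation genes WT library 3 stood at 33976, above 20302 and 21912 in the other WT libraries and below the 44408 to 46042 of mutant RGCs. Mutant RGC library 1 was the lowest of its group in ganglion cell markers and the highest in 16 microglia markers, with 10498 against 2813 and 2599. Microglia markers summed to 4008 to 6201 in WT RGCs and to 154 to 218 in the non-RGC fraction, so the bead-bound fraction also held RNA of other cells. Non-RGC library 3 had the fewest counts of Thy1, at 10.3 against 209 and 351. In such bulk samples fewer cells of a type and less RNA per cell cannot be told apart.

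The promoters of the genes were rich in CpG, the base pair step at which Polycomb complexes gather in mammals. RefSeq promoter sequences on GRCm38.p6 matched 37 of the 49 genes, and Tbx2, Tbx3, Tbx5, Tbx15, Gata4, Gata6, Pax3, Gbx1, Hand1, Pitx1, Cdx1 and Lbx1 had none. The 250 bases before the start site held a median of 15 CpG (range 1 to 31), where all 27018 promoters held a median of 6 (range 0 to 56). At least 10 CpG were present in 27 of 37 (73.0%) and in 38.2% of all promoters. The ratio of observed to expected CpG had a median of 0.676 against 0.379 for all promoters, and the GC content one of 60.4% against 52.0%. The motif TATAAA, searched on both strands, stood in 10.8% of them and in 13.0% of all promoters.

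Expressed and silent genes of the set were both CpG-rich. The 12 matched genes that passed the expression filter described below had a median of 19 CpG and the 25 under it one of 14. Sequences of 4 promoters are given, of genes with different outcomes, with CpG in capitals and each printed 5′ to 3′ on the strand of its gene. Gbx2 was called between the genotypes, Six2 and Tbx20 had groups that did not overlap without a call, and Evx1 had no read in any library. The windows are chr1:89931177-89931426 for Gbx2 (minus strand, 18 CpG), chr17:85688255-85688504 for Six2 (minus strand, 26 CpG), chr9:24774304-24774553 for Tbx20 (minus strand, 22 CpG) and chr6:52313248-52313497 for Evx1 (plus strand, 10 CpG), all on GRCm38.p6.
Gbx2: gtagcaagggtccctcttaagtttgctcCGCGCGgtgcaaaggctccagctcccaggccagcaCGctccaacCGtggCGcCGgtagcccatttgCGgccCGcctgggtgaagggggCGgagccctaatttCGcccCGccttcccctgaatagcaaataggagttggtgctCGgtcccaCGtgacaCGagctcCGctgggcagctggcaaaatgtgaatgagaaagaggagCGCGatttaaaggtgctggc
Six2: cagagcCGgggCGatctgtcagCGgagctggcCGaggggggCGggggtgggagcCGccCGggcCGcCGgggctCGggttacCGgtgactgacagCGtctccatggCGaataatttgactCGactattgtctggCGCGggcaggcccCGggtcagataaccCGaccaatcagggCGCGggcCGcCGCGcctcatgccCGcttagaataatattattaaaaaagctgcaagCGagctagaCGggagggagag
Tbx20: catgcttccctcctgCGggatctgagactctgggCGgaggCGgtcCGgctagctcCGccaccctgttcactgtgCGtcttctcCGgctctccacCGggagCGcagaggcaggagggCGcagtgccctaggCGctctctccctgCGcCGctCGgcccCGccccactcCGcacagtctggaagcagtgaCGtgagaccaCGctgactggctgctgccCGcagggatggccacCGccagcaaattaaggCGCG
Evx1: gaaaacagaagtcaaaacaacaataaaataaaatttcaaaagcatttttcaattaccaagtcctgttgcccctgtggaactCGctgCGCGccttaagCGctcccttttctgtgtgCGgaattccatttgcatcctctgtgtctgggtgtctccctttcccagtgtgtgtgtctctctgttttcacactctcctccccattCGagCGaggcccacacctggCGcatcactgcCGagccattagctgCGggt
CpG pairs run through most of the window in Six2 and Tbx20, while the first stretch of the Evx1 window is AT-rich and has none.

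**Figure D1:**
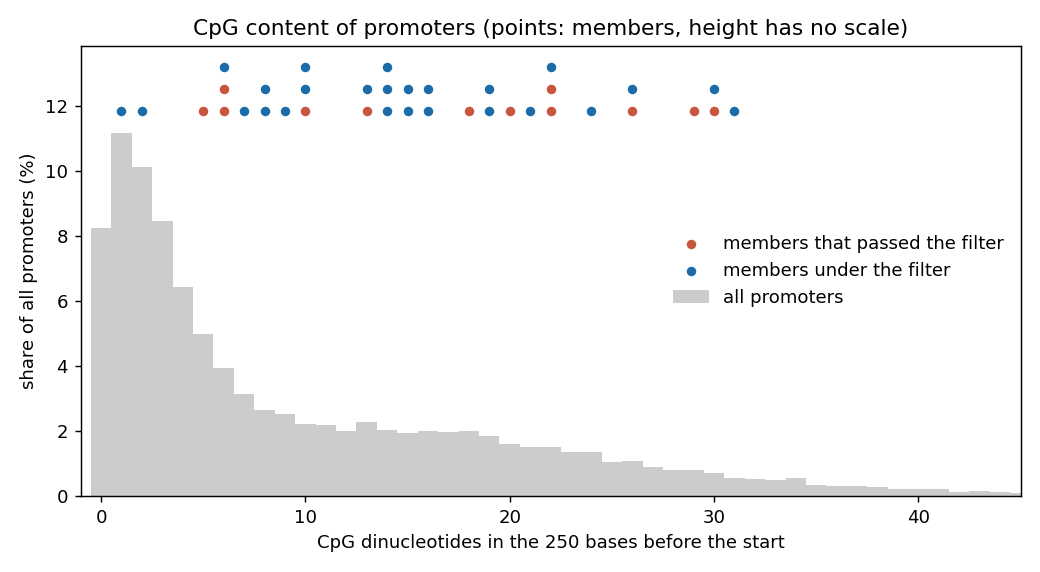
Number of CpG dinucleotides in the 250 bases before the start site (x axis) for all 27018 promoters, as a percentage (grey bars, y axis), and for the 37 matched regulators (points, stacked with no scale), red for those that passed the expression filter and blue for those under it. Regulators of both kinds lie mostly to the right of the grey peak, with medians of 19 and 14 against 6, and the axis ends below the highest value of 56.

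Of the 49 genes, 19 reached a mean of at least 10 normalised counts over the 6 libraries of a comparison and were tested there. In the comparison of genotypes 16 were tested and in that of fractions 17, of which 14 were the same genes. Another 12 genes had a mean of 1 to 10 over the libraries, 13 had a mean under 1, and 5 had no read in any of the 9 libraries. The T-box family had the largest share of tested genes, 7 of 10. The others were 2 of 6 GATA genes, 1 of 7 NK genes, 3 of 7 paired box genes, 2 of 6 in the Gbx, Emx and Evx families, 1 of 2 Pitx genes, 1 of 3 Hmx genes, 2 of the 4 genes Lbx1, Msx1, Msx2 and Six2, and none of the Hand and Cdx genes. A read in every library was found for 21 genes.

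Summed over the set, normalised counts were 6925, 7082 and 7323 in the WT RGC libraries, 8355, 7689 and 7937 in mutant RGCs and 8143.5, 8432.5 and 9145 in mutant non-RGC cells. The groups of RGCs did not overlap in this sum, as was so for 51.1% of all single genes tested between them. Most of these counts were of Tbx2, Tbx3 and Hmx1, and the mean of Tbx3 alone rose from 1182 in WT to 1997 in mutant RGCs.

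**Figure D2:**
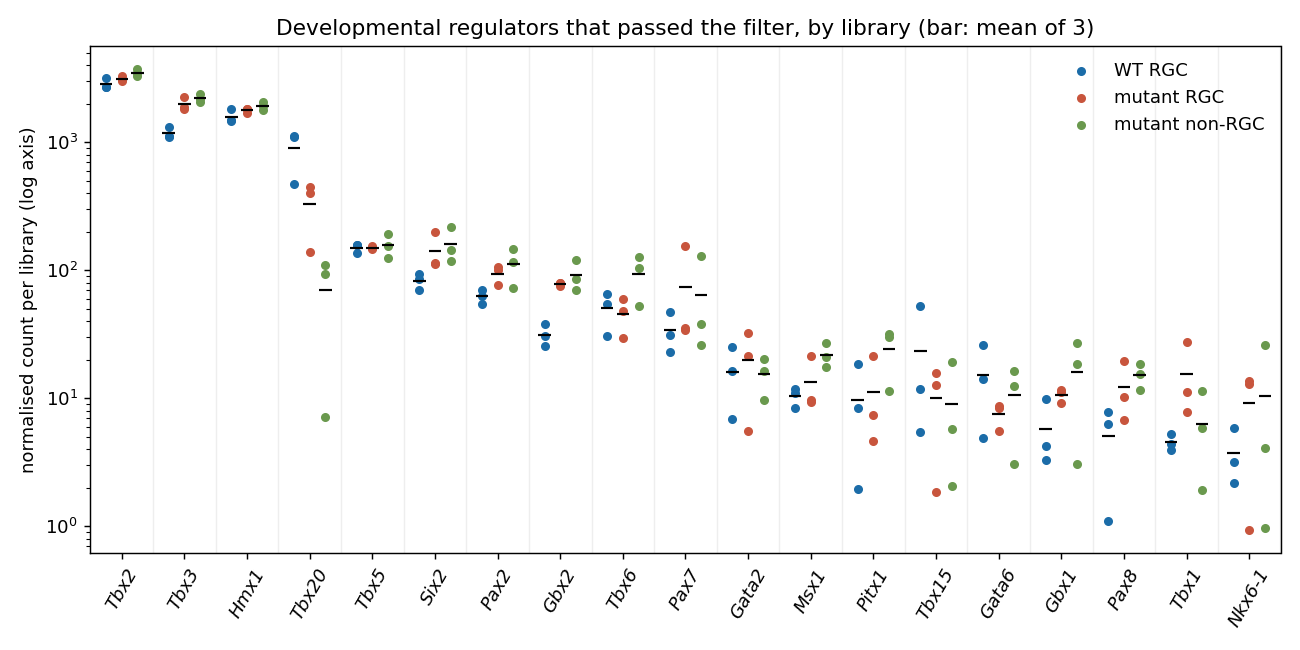
Normalised count per library (y axis, log scale) of the 19 regulators that passed the filter in a comparison, with 1 point per library, WT RGC in blue, mutant RGC in red and mutant non-RGC in green, and a bar at each mean of 3; heights of different genes are not comparable. Tbx3 and Gbx2, and the uncalled genes Six2 and Pax2, have their WT points below all mutant points. Tbx20 falls from left to right, and genes such as Tbx15, Pitx1 and Nkx6-1 spread widely within a group.

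The first comparison, between genotypes, asks whether regulators of this kind are more active in bead-selected cells of mice in which Ezh2 is targeted. Tbx3 and Gbx2 were higher in mutant RGCs, and none of the 16 tested genes was called lower. The 2 calls are 12.5% of the 16, where 26.0% of all 15276 tested genes were called by limma (adjusted p under 0.05), with 13.7% higher and 12.3% lower. Unadjusted p was under 0.05 for 6 of the 16 (37.5%), and for 6872 of all 15276 genes, a larger share. The groups did not overlap for 6 genes, Tbx1, Tbx3, Tbx20, Pax2, Gbx2 and Six2, which is 37.5% against 51.1% of all tested genes. The median log2 fold change was 0.25, with 12 of 16 genes above 0. Over all genes it was 0.004, with 50.4% above 0.

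Between the fractions of mutant retina none of 17 tested genes was called by limma, and the authors' deposited table called none of them either. Of all 15178 genes tested 17.1% were called, 770 higher (5.07%) and 1820 lower in the non-RGC fraction, and that table called 6.47% of its genes. Unadjusted p was under 0.05 for 3 genes, Tbx2, Tbx6 and Tbx20, which is 17.6% against 31.8% of all genes. The groups did not overlap for Tbx2 and Tbx20, 11.8% of the 17 against 37.7% of all genes. The median log2 difference was 0.16, with 12 of 17 genes above 0, and over all genes it was 0.013, with 51.9% above 0. Both comparisons use the same mutant RGC libraries, so their values are set side by side below and not related to each other.

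**Figure D3:**
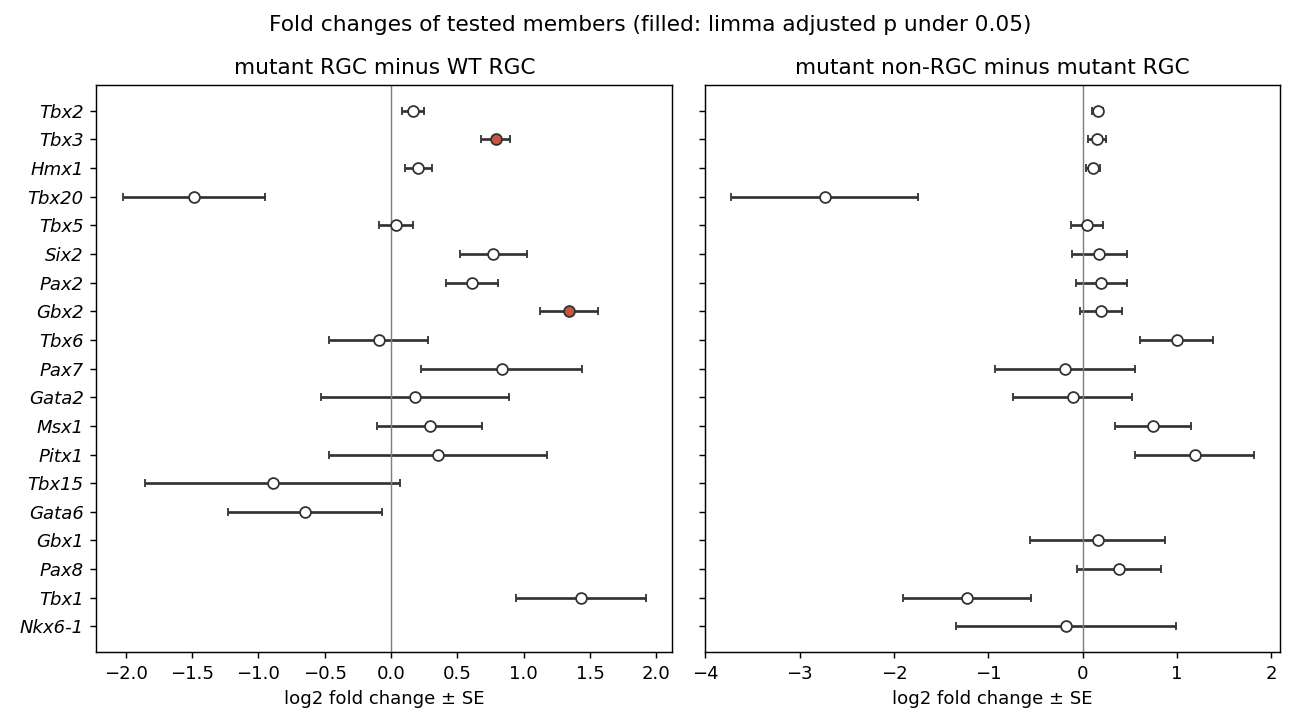
Log2 fold change with its SE (x axis, points and bars) of each tested regulator for mutant against WT RGCs (left) and mutant non-RGC against mutant RGCs (right), filled where the limma adjusted p is under 0.05. Only Tbx3 (0.79) and Gbx2 (1.34) are filled, both on the left, and Tbx20 lies farthest below 0 in both panels (-1.49 and -2.74).

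Among the 3 dorsal T-box genes, Tbx3 was called between genotypes, and Tbx2 and Tbx5 were not. Tbx3 (chromosome 5, 119670534 to 119684724), a T-box repressor of the dorsal retina, had 1093, 1124 and 1330.3 normalised counts in WT RGCs, 2282, 1835 and 1875 in mutant RGCs and 2194, 2067 and 2373 in non-RGC cells. Every mutant library lay above every WT library, and the fractions of mutant retina overlapped. Its mean rose from 1182 ± 129 to 1997 ± 247 (SD, n = 3 each). In the fit, which used the authors' size factors, the log2 fold change was 0.79 (SE 0.11, limma adjusted p = 0.0215). The authors' deposited table called Tbx3 too (adjusted p = 4.82e-05). Between the fractions the log2 difference was 0.15 (SE 0.09, limma adjusted p = 0.305). Tbx3os1, an antisense gene, overlaps Tbx3, and no strand setting of the counting is named.

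The call of Tbx3 needed most of the libraries. Without WT library 1 or 2 its limma adjusted p was 0.107 or 0.0914 and without mutant RGC library 2 or 3 it was 0.0727 or 0.0668, with a log2 fold change of 0.73 to 0.83. Those fits called 3 to 9 of all 15276 genes, so nearly every call of the comparison was lost in them. Without WT library 3 the fold change was 0.88 (limma adjusted p = 0.00263) and 6475 genes were called. Without mutant RGC library 1 Tbx3 stayed called (limma adjusted p = 0.0348), with 2280 genes called in all.

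Tbx2 (chromosome 11, 85832615 to 85841948), the closest relative of Tbx3 and also dorsal, had 2717, 2722 and 3204 normalised counts in WT RGCs, 3277, 3021 and 3139 in mutant RGCs and 3323, 3477 and 3747 in non-RGC cells. WT library 3 lay within the mutant RGC range, and the log2 fold change was 0.16 (SE 0.08, limma adjusted p = 0.171). Without that library it was 0.25 and called (limma adjusted p = 0.01615), in a fit that called 42.4% of all genes. Without each of the other libraries it was 0.12 to 0.18 and not called. The non-RGC libraries all lay above the mutant RGC libraries by a small margin (log2 0.16, SE 0.06, limma adjusted p = 0.117).

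Tbx5 (chromosome 5, 119796514 to 119885220), a dorsal retina and heart gene, was flat across the groups. Its normalised counts were 158, 157 and 136 in WT RGCs, 155, 149 and 147 in mutant RGCs and 155, 126 and 192 in non-RGC cells. The fold change was 0.04 (SE 0.13, limma adjusted p = 0.849) between genotypes and 0.05 (SE 0.17, limma adjusted p = 0.883) between fractions. Of 6 other dorsal genes, 2 were higher in mutant RGCs, Aldh1a1 (log2 1.30, limma adjusted p = 0.0268) and Bambi (log2 0.49, limma adjusted p = 0.03425), and none was lower. Aldh1a1 makes retinoic acid and Bambi is a decoy receptor of BMP signals. In the non-RGC fraction 1 of the 6 was higher, the BMP target Id1 (log2 0.46).

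Pax2 (chromosome 19, 44746601 to 44838269), of the optic stalk and optic nerve astrocytes, had 70.8, 63.2 and 54.8 normalised counts in WT RGCs, 105, 77.5 and 100.3 in mutant RGCs and 73.1, 147 and 115 in non-RGC cells. The RGC groups did not overlap, yet the gene was just short of the threshold (log2 0.61, SE 0.20, limma adjusted p = 0.0592). With total-count scaling the limma adjusted p was 0.04975, the lowest among the alternatives, and in the authors' deposited table the adjusted p was 0.169. Leaving out each library in turn, the limma adjusted p was 0.080 to 0.168. Between the fractions the difference was 0.20 (SE 0.27, limma adjusted p = 0.669).

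The astrocyte gene Gfap varied across the same libraries, with 44.2, 17.9 and 44.9 normalised counts in WT RGCs, 431, 20.5 and 183 in mutant RGCs and 35.6, 398 and 83.3 in non-RGC cells. In both mutant groups the order of the libraries was the same for Gfap and Pax2. The summed level of 8 astrocyte markers was 397 to 705 in WT RGCs, 481 to 1392 in mutant RGCs and 493 to 1152 in non-RGC cells. None of the 7 tested was called between genotypes and 1 was lower in the non-RGC fraction (14.3%, against 17.1% of all genes). The part of these markers in the Pax2 levels was not tested. Of 8 genes of the ventral retina, 2 were higher in mutant RGCs, Cyp1b1 (log2 1.23, limma adjusted p = 0.0215), a cytochrome P450, and the homeobox gene Vax1 (log2 0.87, limma adjusted p = 0.0378). None was lower, and none was called between the fractions. Between genotypes 33.3% of the dorsal and 25.0% of the ventral genes were called, against 26.0% of all genes tested. Between fractions 16.7% of the dorsal genes were called, against 17.1% of all genes tested.

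Hmx1 (chromosome 5, 35388780 to 35400285), a homeobox gene of the eye and the sensory ganglia, had 1486, 1469 and 1815 normalised counts in WT RGCs, 1701, 1815 and 1828 in mutant RGCs and 1791, 1914 and 2071 in non-RGC cells. As for Tbx2, WT library 3 lay among the mutant RGC libraries. The fold change was 0.20 (SE 0.10, limma adjusted p = 0.167). Without WT library 3 it was 0.31 with a call (limma adjusted p = 0.0193), in the fit that called 42.4% of all genes. Without each other library it was 0.15 to 0.25 with no call. Between fractions it was 0.11 (SE 0.07, limma adjusted p = 0.356).

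Gbx2 (chromosome 1, 89927962 to 89931176) is a homeobox gene of the anterior hindbrain and thalamus whose CpG-rich promoter is printed above. It had 25.6, 30.5 and 38.4 normalised counts in WT RGCs, 75.0, 80.3 and 79.8 in mutant RGCs and 85.6, 69.7 and 121 in non-RGC cells. WT libraries lay far below the others, and the non-RGC range spanned that of mutant RGCs. The mean rose from 31.5 ± 6.45 to 78.3 ± 2.95 (SD, n = 3 each). In the fit, which used the authors' size factors, the log2 fold change was 1.34 (SE 0.22, limma adjusted p = 0.0238). The gene is called in the authors' deposited table as well (adjusted p = 0.00132). Between the fractions the log2 difference was 0.19 (SE 0.23, limma adjusted p = 0.606).

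The reads behind Gbx2 were few, 90 in the 3 WT libraries together, 81, 86 and 82 in the mutant RGC libraries and 279 in non-RGC cells. Like Tbx3, it lost its call when WT library 1 or 2 was left out (limma adjusted p = 0.107 and 0.0914), and likewise for mutant RGC library 2 or 3 (0.0727 and 0.0668). Its fold change in these fits was 1.21 to 1.33. The call held without WT library 3 (log2 1.49, limma adjusted p = 0.00449) and without mutant RGC library 1 (limma adjusted p = 0.0377).

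Proliferation genes and some progenitor genes were also called higher in mutant RGCs. Of 24 proliferation genes 23 (95.8%) were higher in mutant RGCs and 14 (58.3%) in the non-RGC fraction, with none lower. Of 14 retinal progenitor markers 5 (35.7%) were higher between genotypes and 4 (28.6%) between fractions. Of all genes tested 26.0% were called between genotypes and 17.1% between fractions. The progenitor sum was 19070.0, 19587 and 29072 in WT RGCs, 31074 to 32014 in mutant RGCs and 34846 to 35831 in non-RGC cells. WT library 3, the highest of its group in both sums, was also the highest WT library for Gbx2 and Tbx3. Within the mutant groups the order did not always match. Non-RGC library 3 was lowest of its group in the proliferation sum (53062) and highest for both genes. Mutant RGC library 1 was lowest of its group in that sum (44408) and for Gbx2. The same library was highest of its group in the progenitor sum and for Tbx3. Neither gene was called between fractions. Of 12 amacrine cell markers 7 were higher and 1 lower in mutant RGCs (66.7% called), and 1 was higher in the non-RGC fraction (8.33%). The part of these cells in the levels of Tbx3 and Gbx2 was not tested.

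Across the 9 libraries, the genes with log2 values most like those of Tbx3 were Efcab14 (Pearson r = 0.997), Krcc1 (0.997) and Smek2 (0.996). For Gbx2 they were Clpx (0.994), Hnrnpr (0.990) and Gm17566 (0.988). These are the highest among 12677 genes with a mean of at least 50. The libraries fall into 3 groups that differ in cell makeup, and 1867 genes had an r above 0.9 with Tbx3 and 1383 with Gbx2.

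Tbx20 (chromosome 9, 24720812 to 24774303), a T-box gene known from the heart and from hindbrain motor neurons, went the other way. It had 1112, 1128 and 472 normalised counts in WT RGCs, 139, 444 and 402 in mutant RGCs and 93.3, 109 and 7.20 in non-RGC cells. No group overlapped another, with WT highest and non-RGC lowest, but the spread within each group was wide. The fold change between genotypes was -1.49 (SE 0.54, limma adjusted p = 0.0774) and between fractions -2.74 (SE 0.99, limma adjusted p = 0.104), so neither was called. The first was -1.90 and called without WT library 3 (limma adjusted p = 0.0381), in the fit that called 42.4% of all genes. It was -0.94 and not called without mutant RGC library 1 (limma adjusted p = 0.132). The second was -1.52 without non-RGC library 3 and not called in any fit that left out a library. The authors' deposited table gave adjusted p-values of 0.0761 and 0.0730.

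Ganglion cell markers had the same order of groups as Tbx20. Of 20 markers 10 were lower in mutant than in WT RGCs and 14 were lower in the non-RGC fraction, with none higher. The libraries lowest in Tbx20 within their groups, WT library 3, mutant RGC library 1 and non-RGC library 3, were also the lowest in the summed marker level, at 44211, 20916 and 5730.5. Pou4f2, a ganglion cell transcription factor, had 2297, 910 and 24.7 normalised counts in these 3 libraries and 2870 and 2954, 1807 and 1760, and 341 and 497 in the others. Whether Tbx20 differs per ganglion cell was not tested.

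Six2 (chromosome 17, 85662736 to 85688254), which maintains nephron progenitors in the kidney, and Pax7 (chromosome 4, 139737059 to 139833530), of dorsal neural tube and muscle precursors, were high in the same libraries. Six2 had 69.8, 85.3 and 93.1 normalised counts in WT RGCs, 201, 113 and 115 in mutant RGCs and 119, 145 and 217 in non-RGC cells. Pax7 had 31.4, 47.4 and 23.0 in WT RGCs, 155, 35.5 and 34.1 in mutant RGCs and 26.0, 37.8 and 129 in non-RGC cells. Mutant RGC library 1 and non-RGC library 3 stood above all others for both genes.

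For Six2 the RGC groups did not overlap but the gene was not called (log2 0.77, SE 0.26, limma adjusted p = 0.0632), and without mutant RGC library 1 the fold change was 0.52. For Pax7 the groups overlapped (log2 0.83, SE 0.61, limma adjusted p = 0.325), and without that library the fold change was 0.14. Between fractions the differences were 0.17 (SE 0.29, limma adjusted p = 0.726) for Six2 and -0.19 (SE 0.74, limma adjusted p = 0.894) for Pax7. The sum of 12 photoreceptor markers was also highest in mutant RGC library 1, at 18249, and non-RGC library 3, at 18547, against 12787 to 14427 in the other mutant libraries and 8332 to 11695 in WT. Of these markers 7 were higher in mutant RGCs (58.3%, against 26.0% of all genes called). In the non-RGC fraction 1 was lower (8.33%, against 17.1% of all genes called). Their part in the Six2 and Pax7 levels was not tested.

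**Figure D4:**
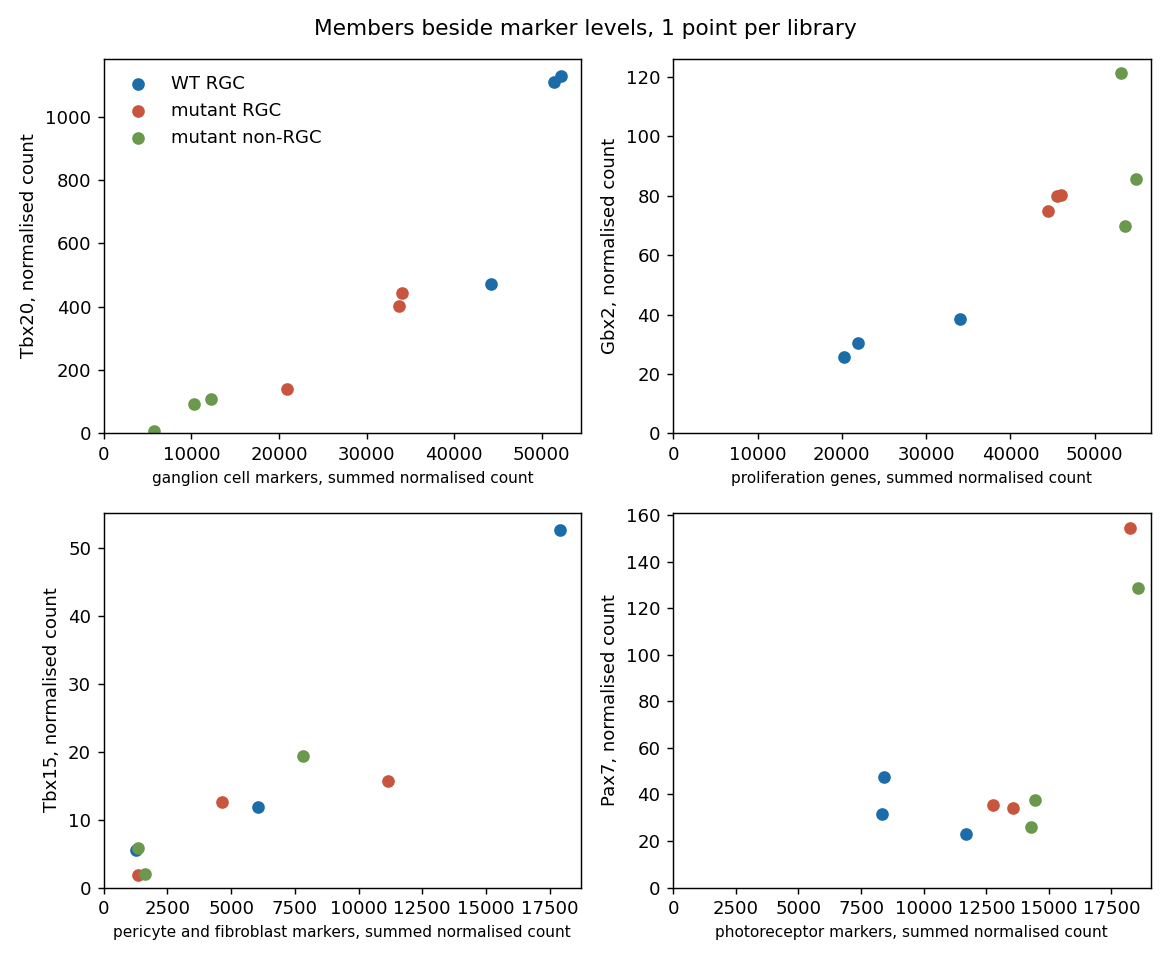
Normalised count of Tbx20, Gbx2, Tbx15 and Pax7 (y axes) against the summed normalised count of ganglion cell, proliferation, pericyte and fibroblast, and photoreceptor markers (x axes), with 1 point per library, WT RGC in blue, mutant RGC in red and mutant non-RGC in green. Tbx20 is lowest where ganglion cell markers are lowest, WT libraries lie at the lower left for Gbx2, Tbx15 is highest in WT library 2 (52.6), and 2 libraries stand apart for Pax7 (155 and 129).

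The other tested genes belong mainly to mesoderm, endoderm or other parts of the nervous system, and none of them was called. Tbx6 (chromosome 7, 126781483 to 126785548), of the presomitic mesoderm, had 65.8, 30.5 and 54.8 normalised counts in WT RGCs, 59.2, 29.9 and 47.7 in mutant RGCs and 127, 104 and 52.5 in non-RGC cells. The RGC groups coincided (log2 -0.09, SE 0.37, limma adjusted p = 0.871), and 2 of the 3 non-RGC libraries lay above them. The difference between fractions was 0.99 (SE 0.39, limma adjusted p = 0.1235), and 1.37 with a call without non-RGC library 3 (limma adjusted p = 0.0375), against 0.73 to 1.19 and no call without each other library.

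Tbx1 (chromosome 16, 18580979 to 18590671), of the pharyngeal arches, had 3.93, 5.26 and 4.38 normalised counts in WT RGCs, 27.8, 11.2 and 7.79 in mutant RGCs and 1.92, 5.81 and 11.3 in non-RGC cells. The RGC groups did not overlap, on 13 reads in WT and 50 in mutant libraries, of which 30 lay in mutant RGC library 1. The fold change of 1.43 (SE 0.49) had a limma adjusted p of 0.0676, and between fractions the difference was -1.22 (SE 0.68, limma adjusted p = 0.268). Leaving out each library in turn, the first was 0.96 (without mutant RGC library 1) to 1.79.

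Tbx15 (chromosome 3, 99240348 to 99354260), of limb and skin mesenchyme, had 11.8, 52.6 and 5.48 normalised counts in WT RGCs, 15.7, 1.87 and 12.7 in mutant RGCs and 5.77, 19.4 and 2.06 in non-RGC cells. Gata6 (chromosome 18, 11052510 to 11085636), of endoderm, heart and smooth muscle, had 4.91, 26.3 and 14.2, then 8.33, 5.6 and 8.76, then 12.5, 16.5 and 3.09 in the same order. Both were highest in WT library 2. Neither was called between genotypes, at -0.89 (SE 0.96, limma adjusted p = 0.511) for Tbx15 and -0.65 (SE 0.58, limma adjusted p = 0.427) for Gata6. Without WT library 2 the values were -0.04 and -0.14, and leaving out the other libraries in turn they reached -1.56 and -1.24.

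Pericyte and fibroblast markers, taken as a sum, were also highest in WT library 2, though not every one of them was. Their summed level over 15 genes was 6065, 17901 and 1272 in WT RGCs, 11141, 1332 and 4662 in mutant RGCs and 1357, 7812 and 1606 in non-RGC cells, and none was called in either comparison. The collagen gene Col1a1 had 5414 normalised counts in WT library 2 and 70.1 in WT library 3. Lum was likewise highest in WT library 2. Pdgfrb was instead highest in mutant RGC library 1, at 549.6 against 320 in WT library 2, and so was Foxc1. Tbx18, a gene of mural cells under the filter, had 22 reads in WT library 2, 21 in mutant RGC library 1 and 0 to 6 in the other 7. The part of these cells in the Tbx15, Tbx18 and Gata6 levels was not tested. Of 14 skeletal muscle genes 6 were tested and none was called in either comparison, with a summed level of 238 to 504. Myod1 and Myf5, the defining genes of muscle precursors, had at most 11.6 and 13.7 normalised counts. Other genes of the list were present, such as Acta1 with a mean of 146 in WT RGCs and Myh3 with 117 in non-RGC cells.

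Gata2 (chromosome 6, 88193891 to 88207032), of blood precursors and some GABAergic neurons, had 6.88, 25.3 and 16.4 normalised counts in WT RGCs, 32.4, 5.6 and 21.4 in mutant RGCs and 9.62, 20.3 and 16.5 in non-RGC cells. Pitx1 (chromosome 13, 55825044 to 55836190), of hindlimb and pituitary, had 1.97, 8.42 and 18.6, then 4.63, 7.47 and 21.4, then 31.7, 30.02 and 11.3. Msx1 (chromosome 5, 37820491 to 37824585), of neural crest and tooth buds, had 11.8, 8.42 and 10.96, then 21.3, 9.33 and 9.73, then 21.2, 27.1 and 17.5. All 3 genes overlapped between the groups of each comparison.

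Between genotypes the fold changes were 0.18 (SE 0.71) for Gata2, 0.35 (SE 0.82) for Pitx1 and 0.29 (SE 0.39) for Msx1, with limma adjusted p-values of 0.866, 0.772 and 0.605. Between fractions they were -0.11 (SE 0.63), 1.19 (SE 0.63) and 0.74 (SE 0.40), with limma adjusted p-values of 0.930, 0.249 and 0.259. With SEs this wide, changes of up to about the size called for Gbx2 could not be told from none for Gata2 and Pitx1.

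Nkx6-1, Pax8 and Gbx1 passed the filter between fractions and not between genotypes. Nkx6-1 (chromosome 5, 101659184 to 101664711), of motor neuron progenitors and pancreatic beta cells, had 5.90, 3.16 and 2.19 normalised counts in WT RGCs, 13.0, 0.933 and 13.6 in mutant RGCs and 0.962, 26.1 and 4.11 in non-RGC cells. Pax8 (chromosome 2, 24420551 to 24475599), of thyroid and kidney, had 7.86, 6.32 and 1.10, then 19.4, 10.3 and 6.81, then 11.5, 18.4 and 15.4. Gbx1 (chromosome 5, 24504426 to 24526848), of dorsal spinal cord neurons, had 9.83, 4.21 and 3.29, then 9.25, 11.2 and 11.7, then 26.9, 18.4 and 3.09. Every group of the fractions overlapped for the 3 genes.

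The differences between fractions were -0.18 (SE 1.16) for Nkx6-1, 0.38 (SE 0.45) for Pax8 and 0.16 (SE 0.71) for Gbx1, with limma adjusted p-values of 0.936, 0.6055 and 0.908. Of the 19 genes that passed, 11 overlap another annotated gene, so some of their reads could belong to a neighbour.

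The 30 untested genes were near silent in every group. They held 135 reads in the 3 WT RGC libraries, 143 in mutant RGCs and 126 in non-RGC cells, summed over all 30. By library the sums were 31, 81 and 23, then 59, 27 and 57, then 35, 56 and 35. The highest was that of WT library 2, which held 22 reads of Tbx18, 13 of Pitx3 and 11 of Gata3. A gene with no read in a group could still have been present at up to 3 reads per group, of 34402275 assigned reads in WT RGCs, 35872569 in mutant RGCs and 32876214 in non-RGC cells, for counting error only.

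**Figure D5:**
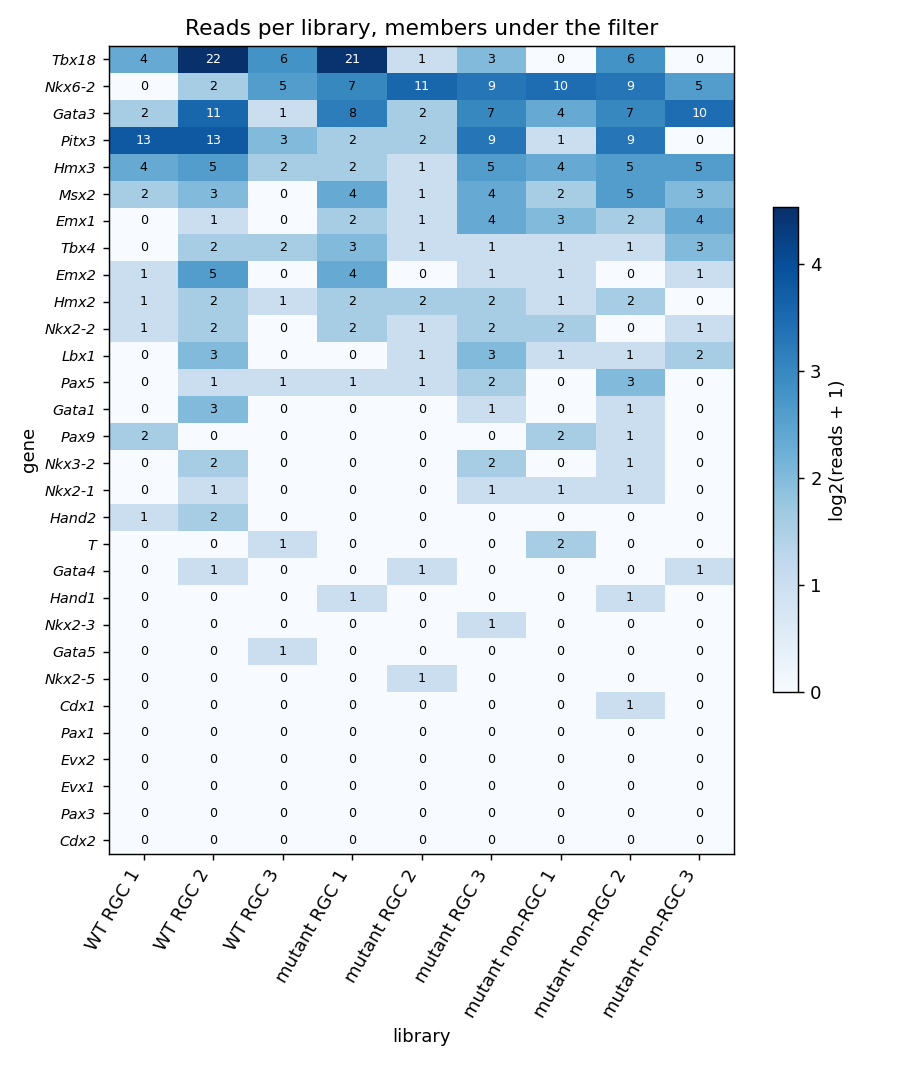
Reads per library (printed numbers, colour as log2 of reads plus 1) of the 30 regulators under the filter, genes in rows by falling total and the 9 libraries in columns. Few squares exceed 10 reads, the Nkx6-2 row is paler in the WT columns, and the last 5 rows hold no read.

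Among the 12 genes with a mean of 1 to 10, Nkx6-2 stood out by its groups. This homeobox gene of oligodendrocytes and ventral spinal cord had 0, 2 and 5 reads in the WT RGC libraries, 7, 11 and 9 in mutant RGCs and 10, 9 and 5 in non-RGC cells. All mutant RGC libraries lay above all WT libraries. Fitted without a filter its log2 fold change was 1.81 with a limma adjusted p of 0.121, in a fit that called 12.2% of 25332 genes, so it was not called. Emx1, a homeobox gene of the cerebral cortex, had 0, 1 and 0 reads in WT RGCs, 2, 1 and 4 in mutant RGCs and 3, 2 and 4 in non-RGC cells. In the same fit without a filter it was not called (limma adjusted p = 0.134). Nkx6-2 and Emx1 were singled out after their values were seen.

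Pitx3, of dopamine neurons and the lens, had 13, 13 and 3 reads in WT RGCs, 2, 2 and 9 in mutant RGCs and 1, 9 and 0 in non-RGC cells. Gata3, of T cells and the inner ear, had 2, 11 and 1, then 8, 2 and 7, then 4, 7 and 10. The inner ear genes Hmx3 and Hmx2 had at most 5 and 2 reads in a library and Msx2, of bone and skin appendages, at most 5. Tbx4 of the hindlimb, Emx2 of cortex and kidney, Nkx2-2 of the ventral neural tube and Lbx1 of migrating muscle precursors had at most 3, 5, 2 and 3. The groups of each of these genes overlapped in both comparisons.

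The 13 genes with a mean under 1 were T, Gata1, Gata4, Gata5, Nkx2-1, Nkx2-3, Nkx2-5, Nkx3-2, Pax5, Pax9, Hand1, Hand2 and Cdx1. They include the mesoderm gene T (Brachyury), the heart regulators Gata4, Nkx2-5, Hand1 and Hand2, the red cell regulator Gata1, the B cell regulator Pax5 and the gut regulator Cdx1. No library had more than 3 reads of any of them, and together they held 16 reads in WT RGCs, 12 in mutant RGCs and 15 in non-RGC cells. Pax1, Pax3, Evx1, Evx2 and Cdx2, genes of vertebral column, neural crest, spinal cord, limb and gut, had no read in any library. The Hox genes, the best-known targets of Polycomb complexes, were as low: none of 38 passed the filter, and their summed normalised count was 5.55 to 12.5 in each library.

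Of the genes of the machinery itself, 36.4% of PRC2 and 21.1% of PRC1 genes were called between genotypes, against 26.0% of all genes, and 18.2% and 26.3% between fractions, against 17.1%. Of 11 PRC2 genes 3 were higher in mutant RGCs (Ezh2, Suz12 at log2 0.58 and Aebp2) and 1 lower (Phf1 at log2 -0.71, limma adjusted p = 0.0225), and 2 were higher in the non-RGC fraction, Ezh2 (log2 0.25) and Phf19 (log2 0.49). Suz12 is a core subunit and Phf1 and Phf19 are accessory subunits that bind methylated histone H3. Of 19 PRC1 genes 2 were higher in mutant RGCs and 2 lower, led by Cbx6 (log2 -0.50, limma adjusted p = 0.0244) and Pcgf5 (log2 1.03, limma adjusted p = 0.02815), and 4 were higher and 1 lower in the non-RGC fraction. Of the 2 genes that encode enzymes removing the mark, Kdm6a was higher in mutant RGCs (log2 0.46, limma adjusted p = 0.0238), and neither was called between fractions.

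Relatives in the same families that lie outside the set moved little between genotypes. Of 25, 11 passed the filter there and 1 was higher in mutant RGCs, Six6 (log2 0.37, limma adjusted p = 0.0282), a homeobox gene of retinal progenitors. Between fractions 10 were tested, Six5 was higher in non-RGC cells (log2 0.62, limma adjusted p = 0.0123) and the T-box gene Tbr1, which marks a class of ganglion cells, was lower (log2 -2.51, limma adjusted p = 0.0169). Between genotypes Tbr1, like Tbx20, was lower without a call, at -1.50 on the log2 scale (SE 0.48, limma adjusted p = 0.0588). The T-box gene Eomes was also lower without a call, at -0.73 between genotypes (SE 0.26, limma adjusted p = 0.0762) and -0.81 between fractions (SE 0.26, limma adjusted p = 0.0697). Tbx21 stood at -0.16 (SE 0.33) and 0.01 (SE 0.44).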

How the data were processed

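Poly(A) RNA of 9 libraries was analysed. Per the submitters' processing notes the authors used STAR 2.3, featureCounts, DESeq and FastQC with build mm10. Their 2 deposited tables give, per the file headers, mean normalised counts per condition (a signal scaled by size factors), the fold change as a ratio, its log2 value, and p-values, raw and adjusted. Terms in the names of the deposited tables point to primary alignments with duplicates removed, which would compress the counts of the most abundant genes. The tables hold no value per library. A deposited mean of 3 libraries is a sum of whole counts over size factors, so counts per library were recovered by an integer search, for 99.9745% to 100.0% of genes above 0. The mutant RGC condition was identified in both tables by its genes at 0, with 0 mismatches against at least 3098 in other pairings. Mutant RGC counts recovered from both tables were identical for 23953 of 23953 genes. Ank2, Kif1b, Reln, Adcy1, Map1b and Dync1h1, whose WT counts had several solutions, were dropped.

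The counts were scaled with the authors' size factors. Genes averaging 10 or more over the 6 libraries compared were tested. The program limma 3.58.1 (R 4.3.3) with a variance trend was used on log2(value + 1). Calls are at a Benjamini-Hochberg adjusted p under 0.05 over all genes tested, and fold changes understate those of low genes. Levels across 9 libraries use median-of-ratios factors over the 9, and levels of different genes are not compared since gene length was not used. The recovery and the fit were tested on simulated data. The genes and lists were chosen with earlier results of these data known. Every listed gene is accounted for, those past the filter with each library's value. Of other lists the counts and up to the 2 smallest adjusted p-values are named, with a few further genes such as Gfap, Pou4f2 and Col1a1 chosen after their values were seen. Symbols matched a name table for 35718 of 38720, and coordinates are RefSeq genes on GRCm38. A list of muscle genes was added after seeing the data. Alternatives covered pseudocount, filter, scaling, weights, shared spread, the authors' adjusted p and leaving out each library.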

Additional observations from a re-analysis of the deposited data

How the results depend on the processing

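Alternatives other than leaving out a library (pseudocount, filter, scaling, voom weights, all 9 libraries in a fit, the authors' adjusted p) left 159 of 160 values between genotypes and 168 of 170 between fractions on their side of the threshold and in their direction. Total-count scaling added Pax2 between genotypes and, between fractions, 1 gene of the set, Tbx2 (log2 0.22, limma adjusted p = 0.041). The authors' deposited table turned Nkx6-1 between fractions to 0.19 and called 1613 of the genes tested there. Of all genes called between fractions, 770 were higher and 1820 lower, and 1465 and 1602 with total-count scaling. The cause of these changes was not tested.

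Leaving out each library in turn gave 0 to 5 called regulators between genotypes and 0 to 1 between fractions, and 3 to 6475 and 440 to 3396 genes called in all. Without WT library 3 the 5 were Tbx2, Tbx3, Gbx2 and Hmx1, higher, and Tbx20, lower. That fit called 42.4% of all genes, against 26.0% with every library. Log2 values that changed sign ranged between genotypes from -0.41 to 0.17 for Tbx6, -0.30 to 0.86 for Gata2, -0.38 to 0.98 for Pitx1, -0.031 to 0.076 for Tbx5 and -0.054 to 0.47 for Msx1. Between fractions they ranged from -1.22 to 0.69 for Nkx6-1, -0.79 to 0.37 for Gata2, -0.85 to 0.51 for Pax7, -0.40 to 1.00 for Gbx1, -0.029 to 0.47 for Pax2, -0.10 to 0.20 for Tbx5, -0.017 to 0.37 for Gbx2 and -0.061 to 0.43 for Six2. None of these was called in any fit. These fits have fewer samples, and a group of 2 is assumed to vary like the other. Tbx3 between genotypes ranged from 0.71 to 0.88 and Gbx2 from 1.21 to 1.49.

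No paired analysis was possible because no recovered library is tied to a sample number, so the fit with a replicate block was not run. The planned edgeR quasi-likelihood test was not run, by choice, because the counts were recovered from means. Genes under 10 normalised counts have too few reads to show any but large changes.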
